A study of Mus musculus with 31 samples.

Results

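Liver RNA of mice given a GalNAc-conjugated antisense oligonucleotide (ASO) with no intended target was compared with liver RNA of mice given DPBS, the buffer in which the ASO is injected. The comparison took 21 of the 31 mice of the series. Of the treated mice, 10 in number, 4 received 15 mg/kg of Control-GalNAc-ASO (2 females, 2 males) and 6 received 20 mg/kg (3 females, 3 males), while 11 mice (6 females, 5 males) received DPBS. Membership came from the treatment, dose and sex entries of the sample labels, and the 2 doses were pooled. Mice were of the strain *hFIX-R29X*, aged 8 to 14 weeks, and were dosed under the skin 6 times, 5 days apart (the labels' entry for dose says weekly). Per the study's text, the strain lacks mouse *F9* and holds a human *FIX* minigene that bears the nonsense mutation R29X. The minigene is driven by the human transthyretin promoter, both groups share that background, and 48 h passed between the last dose and sacrifice. That text describes Control-GalNAc-ASO in this strain at 15 mg/kg, while the dose of 20 mg/kg is taken from the labels. The labels do not say which mice shared a litter, cage, sequencing run or day, so p-values measure the spread between these mice, and a day or run that went with the treatment cannot be told apart from it.

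A gapmer ASO is a short single strand whose central DNA stretch, once paired with an RNA, lets RNase H1 cut that RNA, while modified wings protect the ends. GalNAc is a sugar bound by the asialoglycoprotein receptor, which is made of the products of *Asgr1* and *Asgr2* on hepatocytes, so a GalNAc-ASO is taken into these cells and reaches endosomes and lysosomes. A control ASO matches no gene, so a difference from DPBS would be one that does not need the intended pairing. Effects of this kind that are known for ASOs in liver include sensing of nucleic acid by innate immune receptors, binding to cell proteins through the phosphorothioate backbone, cutting of RNAs with partial pairing, and stress responses.

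The sequence of the control ASO decides which RNAs it could pair with. It is given here as the study's table of ASOs lists it for the parent control ASO, in capitals where the 3-base wings of constrained ethyl sugars lie and in lower case for the gap of 10 DNA bases. That the GalNAc-conjugated form has the same 16 bases is not stated in the sources used here. The ASO against *Upf3b*, which the other GalNAc-ASO mice of the series received, stands below it.
Control ASO: GGCcaatacgccgTCA
Upf3b ASO: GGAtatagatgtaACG
The complement of the control ASO was searched for in all annotated mouse transcripts of GENCODE M21 (GRCm38). No gene held 14, 15 or 16 contiguous bases of it. A single gene held 13 bases, *D10Wsu102e*, in the 3′ UTR (chromosome 10, 83462641 to 83462653, plus strand), and 2 genes held 12 bases, *Katna1* in its coding sequence (chromosome 10, 7762813 to 7762824, plus strand) and the pseudogene *Gm11658*. The matched bases are shown in capitals within the complement of the ASO, written 5′ to 3′ as in the RNA but with T.
D10Wsu102e: TGACGGCGTATTGgcc
Katna1: tGACGGCGTATTGgcc
Introns were not searched, since only spliced transcripts were at hand. *D10Wsu102e* was between 37.2 and 128 TPM, median 70.0, in the Control-GalNAc-ASO mice and between 48.1 and 161 TPM, median 99.99, in the DPBS mice, a log2 difference of -0.51 ± 0.22 (SE, 95% interval -0.96 to -0.07), with an unadjusted p of 0.0254 and an adjusted p of 0.368 (limma, here and below). *Katna1*, a subunit of a microtubule-severing enzyme, was between 12.8 and 27.7 TPM and between 12.5 and 37.7 TPM, a log2 difference of -0.16 ± 0.24 (SE, adjusted p = 0.837). For both genes the groups overlapped over most of their range. *D10Wsu102e* was thus lower at an unadjusted p under 0.05, as were 3.73% of all genes tested, and neither gene passed after adjustment.

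Each mouse had a TPM value for 31172 gene symbols. Reads per mouse, worked out from the steps between low values, ran from 1184204 to 7391615 (median 3198919), and 3 reads, taken as a floor for counting error only, came to between 0.406 and 2.53 TPM. All these read numbers lie below the average depth that the study's methods state, and the reason was not tested. DPBS replicates 6 and 7 stood apart from the rest. They had 1195891 and 1184204 reads and 10022 and 10524 genes above 0, against 11737 to 13956 genes in the other 19 mice, and their median correlations with the other mice were 0.754 and 0.774 against 0.813 or more. Control-GalNAc-ASO 20 mg/kg replicate 1 had a like number of reads (1210523) and 11737 genes. The counts over all genes are therefore also given without these mice, and list counts are given without DPBS replicates 6 and 7 where that moved a count by 2 genes or more, a choice made after seeing the data. The labelled tissue was checked on 10 hepatocyte markers, whose summed level was 33764 to 66368 TPM in the Control-GalNAc-ASO mice and 39227 to 75862 TPM in the DPBS mice. The Y-linked gene *Ddx3y* was 26.2 TPM or more in every mouse labelled male and 1.01 TPM or less in every mouse labelled female.

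Of 8985 genes whose median reached 5 TPM in either group, 2 were higher in the livers of mice given Control-GalNAc-ASO at an adjusted p under 0.05 and none was lower, which is 0.0223% of the genes tested. The 2 genes were *Tmem254c*, which encodes a transmembrane protein, and *Haus4*, which encodes a subunit of augmin, the complex that makes new microtubules branch within the mitotic spindle. At an unadjusted p under 0.05 there were 1058 genes (11.8%), 723 higher and 335 lower. No gene separated the groups: in none of the 8985 was every Control-GalNAc-ASO mouse above, or every one below, all DPBS mice. Without DPBS replicates 6 and 7 the number called was 3, all higher, and they were *Gas6*, *F2r* and *Akap11* in place of the first 2. Without those and Control-GalNAc-ASO 20 mg/kg replicate 1 it was 2, *Gas6* and *F2r*. With limma's weights per mouse it was 265 (169 higher, 96 lower), and those weights were lowest for DPBS replicates 6 (0.238), 7 (0.381) and 5 (0.524).

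**Figure D1:**
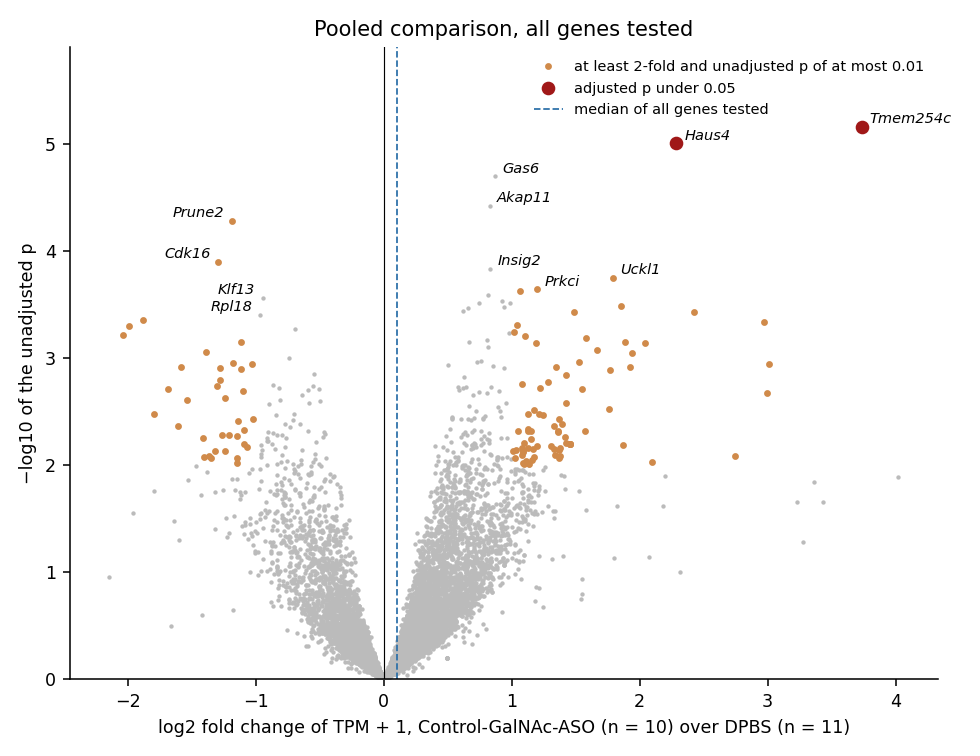
Log2 fold change of TPM + 1, Control-GalNAc-ASO (n = 10) over DPBS (n = 11), on the x axis against -log10 of the unadjusted limma p on the y axis, 1 point for each of 8985 genes. The 2 dark points passed an adjusted p under 0.05, the orange and dark points together are the 116 genes past 2-fold and an unadjusted p of 0.01, and the dashed line is the median of all genes, 0.11.

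The differences between most genes were small and leaned to one side. The median log2 fold change of all genes tested was 0.11, and 61.5% of genes had a positive value. Rescaling the mice by TMM factors took that median to 0.04, left no gene called, and changed the split at an unadjusted p under 0.05 from 723 higher and 335 lower to 497 higher and 488 lower, so the surplus of higher genes depended on the scaling. The median SE of a log2 fold change was 0.31. For 5130 genes (57.1%) the 95% interval lay wholly within 2-fold of no change, and for the other genes it reached past 2-fold in at least 1 direction.

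*Tmem254c* (chromosome 14, 26063919 to 26067355, minus strand, GRCm38) was listed at 0 in 8 of the 11 DPBS mice and at 14.8, 20.3 and 19.3 TPM in DPBS replicates 1, 2 and 4. In the Control-GalNAc-ASO mice it was 4.79, 44.6, 12.7 and 34.6 TPM in the 4 mice at 15 mg/kg and 74.9, 11.1, 43.5, 31.4, 71.1 and 48.9 TPM in the 6 mice at 20 mg/kg. The groups overlapped in the range of 4.79 to 20.3 TPM, which held 3 mice of each. The log2 fold change was 3.74 ± 0.66 (SE, adjusted p = 0.0447), on the log2(TPM + 1) scale, and depends on the pseudocount because of the zeros.

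The reads of *Tmem254c* are shared with near-identical copies on the same chromosome. Of its 1549 distinct 31-base stretches, 100% also occurred in transcripts of *Tmem254b*, so how many reads fall to each symbol is uncertain. *Tmem254a* and *Tmem254b* had equal values in all 31 mice, between 6.14 and 31.6 TPM in the Control-GalNAc-ASO mice and between 13.3 and 35.6 TPM in the DPBS mice. Summed over the 3 symbols, the level was between 43.7 and 118 TPM, median 72.7, in the Control-GalNAc-ASO mice and between 42.5 and 90.4 TPM, median 51.8, in the DPBS mice. That sum, formed after the values were seen, differed by 0.39 on the log2 scale (two-sided permutation test with 100000 resamples, p = 0.0369, unadjusted), and the groups overlapped over most of their range.

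*Haus4* (chromosome 14, 54541785 to 54554616, minus strand) shared no 31-base stretch with another gene. It was between 3.34 and 17.4 TPM, median 10.0, in the Control-GalNAc-ASO mice and between 0 and 7.45 TPM, median 0.844, in the DPBS mice. Among the DPBS mice, replicates 1 and 3 were at 7.45 and 6.59 TPM, within the range of the treated mice, and the other 9 were at 1.26 TPM or less, below all of them. The log2 fold change was 2.29 ± 0.43 (SE, adjusted p = 0.0447), with 2.95 in females and 1.56 in males. In the DPBS mice most of these values rest on few reads, since 3 reads were 0.445 to 2.53 TPM there.

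**Figure D2:**
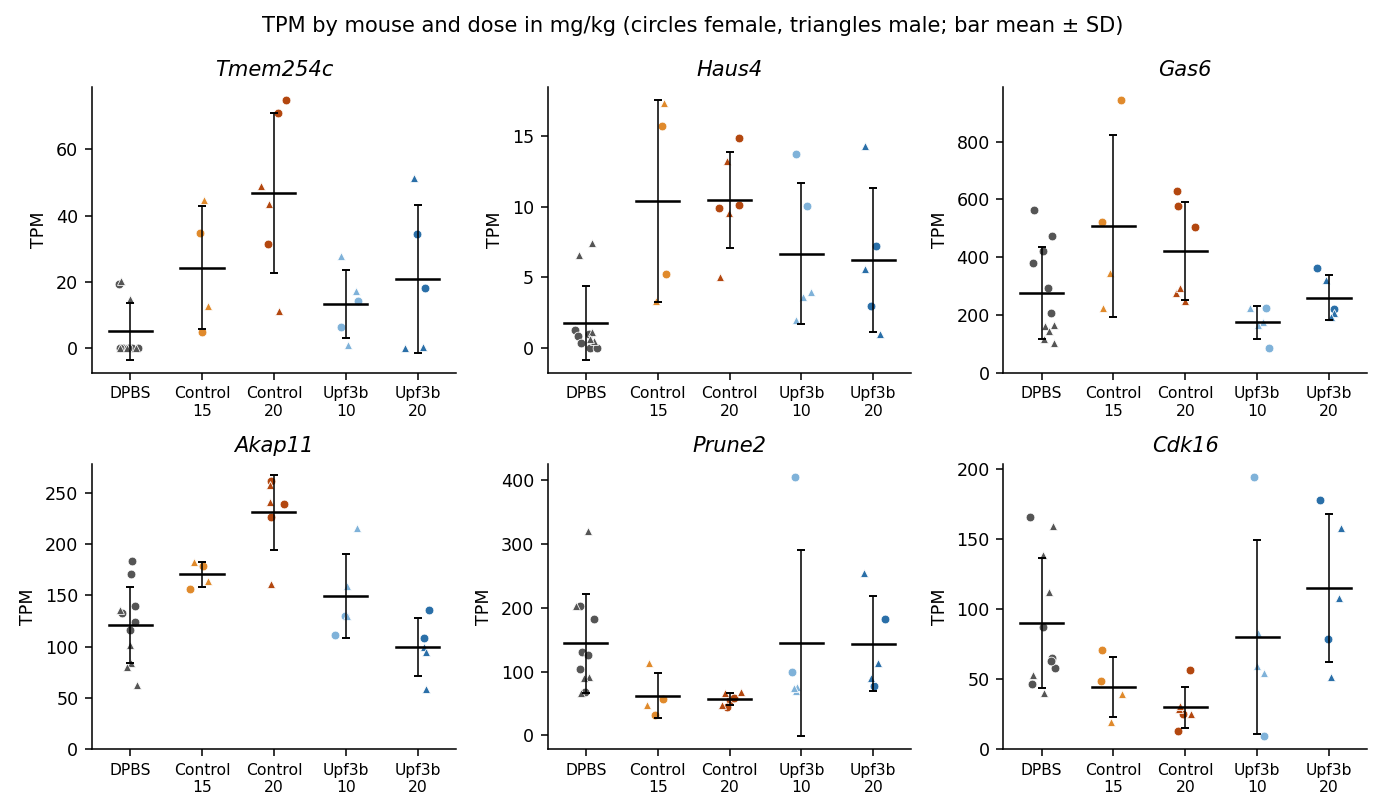
TPM (y axis) of *Tmem254c*, *Haus4*, *Gas6*, *Akap11*, *Prune2* and *Cdk16* in each mouse, by treatment and dose in mg/kg (x axis), with circles for females, triangles for males and bars for mean ± SD (n = 11, 4, 6, 5 and 5 mice from left to right). *Tmem254c* lies at 0 in 8 DPBS mice, and each of the 6 genes has some overlap between DPBS and Control-GalNAc-ASO mice.

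The next 10 genes among the higher ones missed the threshold, with adjusted p of 0.0604 to 0.160. Each had all 10 Control-GalNAc-ASO mice above the median of the DPBS mice. They were picked by smallest p in these same mice, which favours such a pattern, so it is no separate support. *Gas6*, a ligand of the TAM receptor tyrosine kinases, was between 225 and 946 TPM, median 424, against 102.3 to 562 TPM, median 208, in DPBS mice, a log2 fold change of 0.87 ± 0.17 (SE, adjusted p = 0.0604). *Akap11*, which anchors protein kinase A, was between 156 and 261 TPM against 62.5 to 183 TPM, a log2 fold change of 0.83 ± 0.17 (SE, adjusted p = 0.0862). Only 2 DPBS mice reached into the range of the treated mice for *Akap11*, while 5 did for *Gas6*, and all of them were females. *Gas6* was higher in females, at 503 to 946 TPM in treated and 208 to 562 TPM in DPBS females. In males *Gas6* was 225 to 345 TPM in treated mice and 165 TPM or less in DPBS mice, without overlap. *Akap11* was 161 TPM or more in treated males and 136 TPM or less in DPBS males, and overlapped in females. *Insig2*, an endoplasmic reticulum protein that holds back the sterol sensor SCAP, was between 402 and 961 TPM against 202 to 622 TPM, with a log2 fold change of 0.83 ± 0.19 (SE). The others were *Uckl1*, a uridine-cytidine kinase (1.79 ± 0.42), *Prkci*, a protein kinase C of cell polarity (1.20 ± 0.28), *F2r*, the thrombin receptor (1.07 ± 0.25), *Cacul1* (0.82 ± 0.20), *Smlr1* (0.92 ± 0.22), *Rnaset2b*, a lysosomal ribonuclease (0.99 ± 0.24), and *Cgn*, cingulin of tight junctions (0.75 ± 0.18), all as log2 fold change ± SE. Values of *Rnaset2b* are uncertain, because 63.1% of its 31-base stretches are also in other genes, mainly *Rnaset2a*. Of the 31-base stretches of *Cgn*, 21.6% also occur in other genes, mainly *BC021767*.

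No gene fell at the threshold, and the 12 lower genes with the smallest p had adjusted p of 0.0940 to 0.198. *Prune2* was between 31.7 and 113 TPM, median 56.5, in the Control-GalNAc-ASO mice and between 66.2 and 320 TPM, median 126, in the DPBS mice, with a log2 fold change of -1.19 ± 0.25 (SE, adjusted p = 0.0940). *Cdk16*, a cyclin-dependent kinase, was between 13.2 and 71.1 TPM against 40.4 to 165 TPM, with a log2 fold change of -1.29 ± 0.29 (SE, adjusted p = 0.160). These were the 2 lower genes with the smallest p, and in each of them 3 treated mice reached into the range of the DPBS mice. *Zfp280d*, a zinc finger gene, was between 7.65 and 46.9 TPM against 11.8 to 399 TPM, and *Capn6*, a calpain, between 1.31 and 33.6 TPM against 4.23 to 93.5 TPM, with log2 fold changes of -1.99 ± 0.49 and -2.04 ± 0.52 (SE). The 2 groups overlapped in both genes.

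The other lower genes came from several roles. *Rpl18*, a protein of the large ribosomal subunit, was between 8.64 and 24.4 TPM against 16.9 to 52.5 TPM (log2 fold change -0.97 ± 0.24, SE). *Tmed2*, a cargo receptor between endoplasmic reticulum and Golgi, was between 109 and 324 TPM against 203 to 456 TPM (-0.70 ± 0.18). *Ap2a1*, a subunit of the clathrin adaptor AP-2 used in endocytosis, was 4.42 TPM or less in the treated mice and between 0 and 13.6 TPM in the DPBS mice (-1.88 ± 0.47), so most of its values lie near the floor. *Klf13*, a Krüppel-like factor, had a log2 fold change of -0.95 ± 0.23, *Tnfrsf12a*, the TWEAK receptor, -1.12 ± 0.29, *Abhd17a*, a depalmitoylating enzyme, -1.39 ± 0.37, *Aph1a*, a subunit of gamma-secretase, -0.74 ± 0.20, and *Zfp358*, a zinc finger gene, -1.18 ± 0.33. Parts of *Aph1a* (21.9% of its 31-base stretches), *Tmed2* (24.7%) and *Rpl18* (12.2%) also occur in other annotated genes. These shares, like those of *Rnaset2b* and *Cgn*, count whole transcripts, and which part of a transcript the reads came from was not tested.

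At the thresholds the study's methods state, which ask for a fold change of 2 or more together with an unadjusted p no higher than 0.01, with p taken here from limma, 116 genes passed (1.29% of those tested), 80 higher and 36 lower. After TMM rescaling it was 104, 56 higher and 48 lower, and without DPBS replicates 6 and 7 it was 149, 90 higher and 59 lower. These were mainly genes of low level. Of the 116, 89 (76.7%) had a mean under 20 TPM and 61 (52.6%) were at 0 in at least 1 mouse, against 44.1% and 18.7% of all genes tested. Of the 8985 genes tested, 719 belonged to a gene list described below, and 6 of the 116 were among them. These 6 were *Slco1a1*, *Jak2* and *Col3a1* among the higher and *Cyp2c69*, *Dlgap5* and *Ciart* among the lower. *Jak2* falls outside the rule for naming genes and was named after its value was seen.

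The gene lists covered 36 functions that ASOs or the liver state are known for, with 719 distinct genes tested. None of the 719 passed an adjusted p under 0.05, and the smallest adjusted p among them was 0.160. At an unadjusted p under 0.05, 59 were higher and 42 lower, 14.0% together against 11.8% of all genes. For 524 of the 719 the 95% interval lay within 2-fold of no change. Below, counts of list members refer to this unadjusted threshold, at which 8.05% of all genes were higher and 3.73% lower, and no member named passed the adjusted test.

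**Figure D3:**
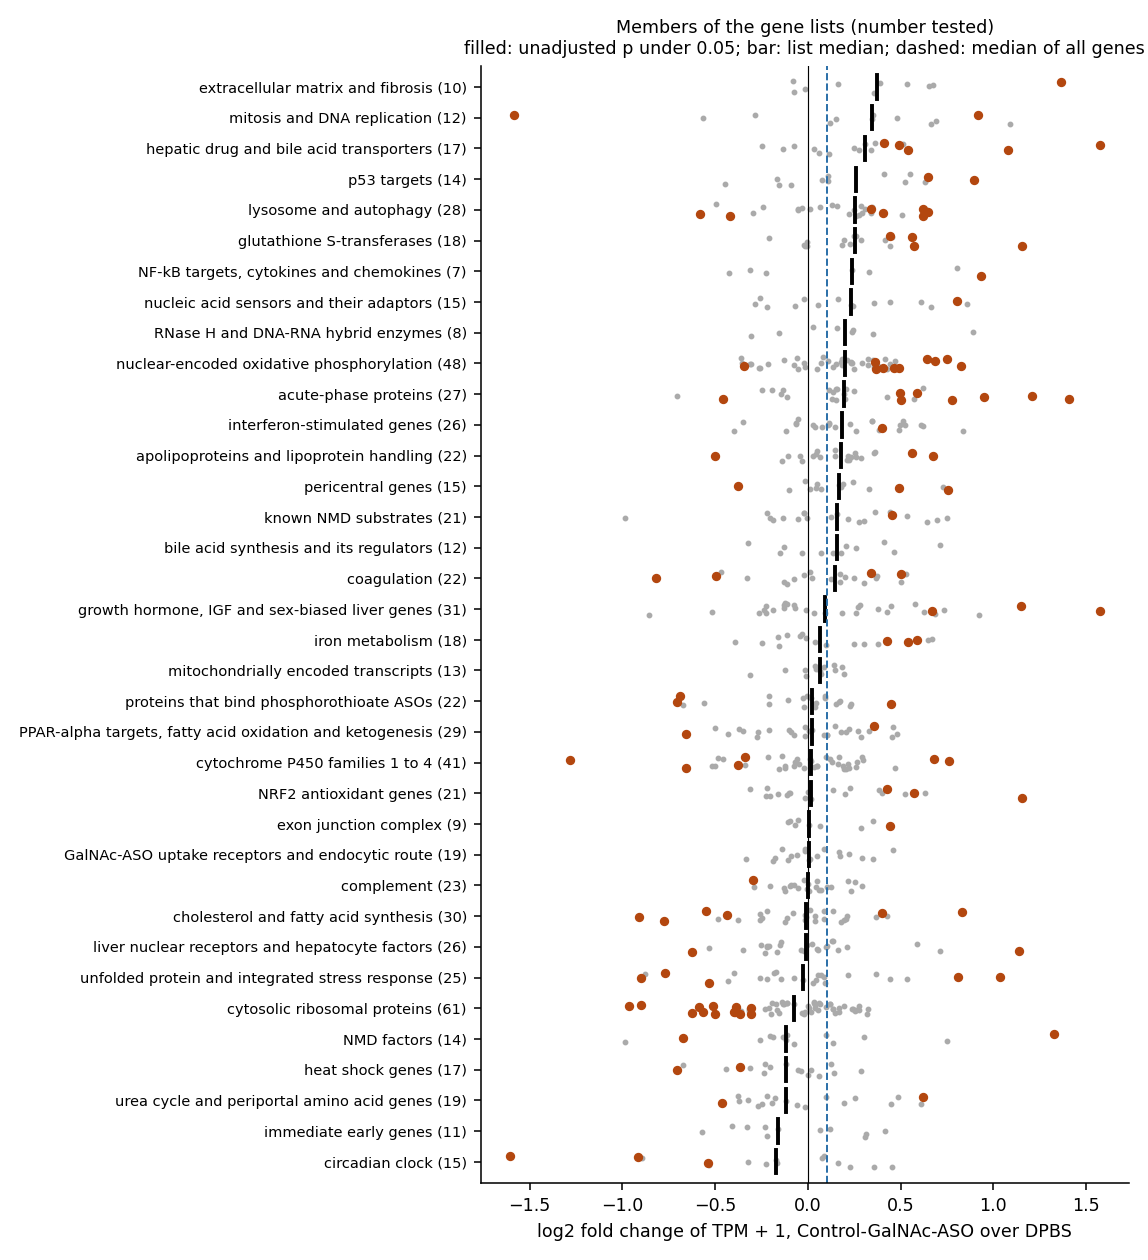
Log2 fold change of TPM + 1, Control-GalNAc-ASO over DPBS (x axis), of the tested members of 36 gene lists (y axis, number tested in brackets). Filled points had an unadjusted p under 0.05, none passed after adjustment, black bars are list medians, and the dashed line is the median of all genes, 0.11. The medians lie between -0.17 (circadian clock) and 0.37 (extracellular matrix).

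Genes on the route of a GalNAc-ASO into hepatocytes gave no member past the unadjusted threshold. Of 19 tested genes of uptake and endocytosis, none had an unadjusted p under 0.05, the list median was 0.01, and for 17 the 95% interval lay within 2-fold. *Asgr1* was 1816 ± 745 TPM (SD, n = 10) in the Control-GalNAc-ASO mice and 2321 ± 1143 TPM (SD, n = 11) in the DPBS mice, a log2 difference of -0.33 with a 95% interval of -0.84 to 0.17. By dose *Asgr1* was 2439 ± 648 TPM (SD, n = 4) at 15 mg/kg and 1400 ± 478 TPM (SD, n = 6) at 20 mg/kg, and the difference between the doses had an adjusted p of 0.772 (limma). *Asgr2* was 346 ± 55.1 and 316 ± 88.8 TPM, a log2 difference of 0.17 with an interval of -0.15 to 0.49. *Rab5c* of early endosomes was at 0.29 (-0.07 to 0.65), and *Stab2*, a scavenger receptor of liver endothelium that binds phosphorothioate ASOs, at 0.01 (-0.66 to 0.69). Of 8 tested enzymes that act on DNA-RNA hybrids, none had an unadjusted p under 0.05, with *Fen1* at 0.89 ± 0.46 and *Rnaseh2c* at -0.31 ± 0.22 (log2 fold change ± SE). *Rnaseh1*, the enzyme gapmers rely on, lay under the filter, at 0 to 10.7 TPM in the treated and 0 to 3.87 TPM in the DPBS mice.

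Among 22 genes for proteins known to bind phosphorothioate ASOs, 1 was higher and 2 were lower. Among the lower was *Hsp90ab1*, a chaperone, at 1282 to 4678 TPM against 2188 to 7654 TPM (log2 fold change -0.70 ± 0.26, SE). In a liver sample, fewer cells of a type and less RNA per cell cannot be told apart, here and below.

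Innate sensors and interferon-stimulated genes gave few members past the unadjusted threshold. Of 15 tested nucleic acid sensors and adaptors, 1 was higher and none lower. It was *Mavs*, the adaptor of the RIG-I-like receptors, at 19.1 to 40.8 TPM against 4.44 to 32.8 TPM (log2 fold change 0.80 ± 0.30, SE, adjusted p = 0.317). *Tlr3*, a receptor for double-stranded RNA in endosomes, was at 0.86 ± 0.53, and *Tlr9*, the receptor for CpG DNA, was listed at 0 in all 21 mice. Of 26 interferon-stimulated genes, 1 was higher, *H2-D1* of antigen presentation, at 232 to 402 TPM against 177 to 305 TPM (0.40 ± 0.14). *Oasl2* was at 0.62 ± 0.40 and *Isg15* at -0.12 ± 0.26. The list median was 0.19. *Isg15* ran from 84.9 to 276 TPM in 9 treated mice and from 126 to 291 TPM in the DPBS mice, and stood at 635 TPM in Control-GalNAc-ASO 20 mg/kg replicate 6.

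Of 7 tested NF-kB targets, cytokines and chemokines, 1 was higher, the chemokine *Cxcl9* (0.94 ± 0.41), with *Birc3* at 0.80 ± 0.45. The other 19 of the 26 listed, among them most cytokines, lay under the filter.

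Of 27 acute-phase genes, which hepatocytes raise under inflammation, 7 were higher and 1 was lower, with a list median of 0.20. *Saa2* was between 9.89 and 349 TPM, median 50.8, in the Control-GalNAc-ASO mice and between 6.59 and 82.3 TPM, median 21.3, in the DPBS mice (log2 fold change 1.21 ± 0.47, SE, adjusted p = 0.339). *Saa1* was between 20.97 and 470 TPM, median 46.3, and between 11.9 and 55.0 TPM, median 29.6 (0.95 ± 0.38, adjusted p = 0.339). In both genes the highest value was that of Control-GalNAc-ASO 20 mg/kg replicate 6, and the other 9 treated mice reached no further than 82.1 TPM for *Saa2* and 80.8 TPM for *Saa1*. *Saa4* was at 0.78 ± 0.26 and *Fgb*, the fibrinogen beta chain, at 0.50 ± 0.18. Without replicate 6 at 20 mg/kg the list had 6 higher and 1 lower, with a median of 0.18, and over all mice left out in turn it had 5 to 7 higher. The count was smaller in some subsets, with 1 higher and none lower in females (median 0.07), 9 higher and 1 lower in males (median 0.54), 1 higher at 15 mg/kg and 6 higher at 20 mg/kg. These differences between subsets of the list were not tested.

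Of 23 complement genes none was higher and 1 was lower, *Cfb* (-0.30 ± 0.13), with *C4b* at -0.29 ± 0.16. Of 22 coagulation genes 2 were higher and 2 lower, and without DPBS replicates 6 and 7 it was 4 and 4. *Plg*, plasminogen, was between 474 and 1232 TPM, median 879, against 633 to 3179 TPM, median 1614 (log2 fold change -0.82 ± 0.24, SE, adjusted p = 0.229). Mouse *F9* was at 0 to 6.09 TPM in the treated mice and at 0 to 2.58 TPM in the DPBS mice, under the filter.

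**Figure D4:**
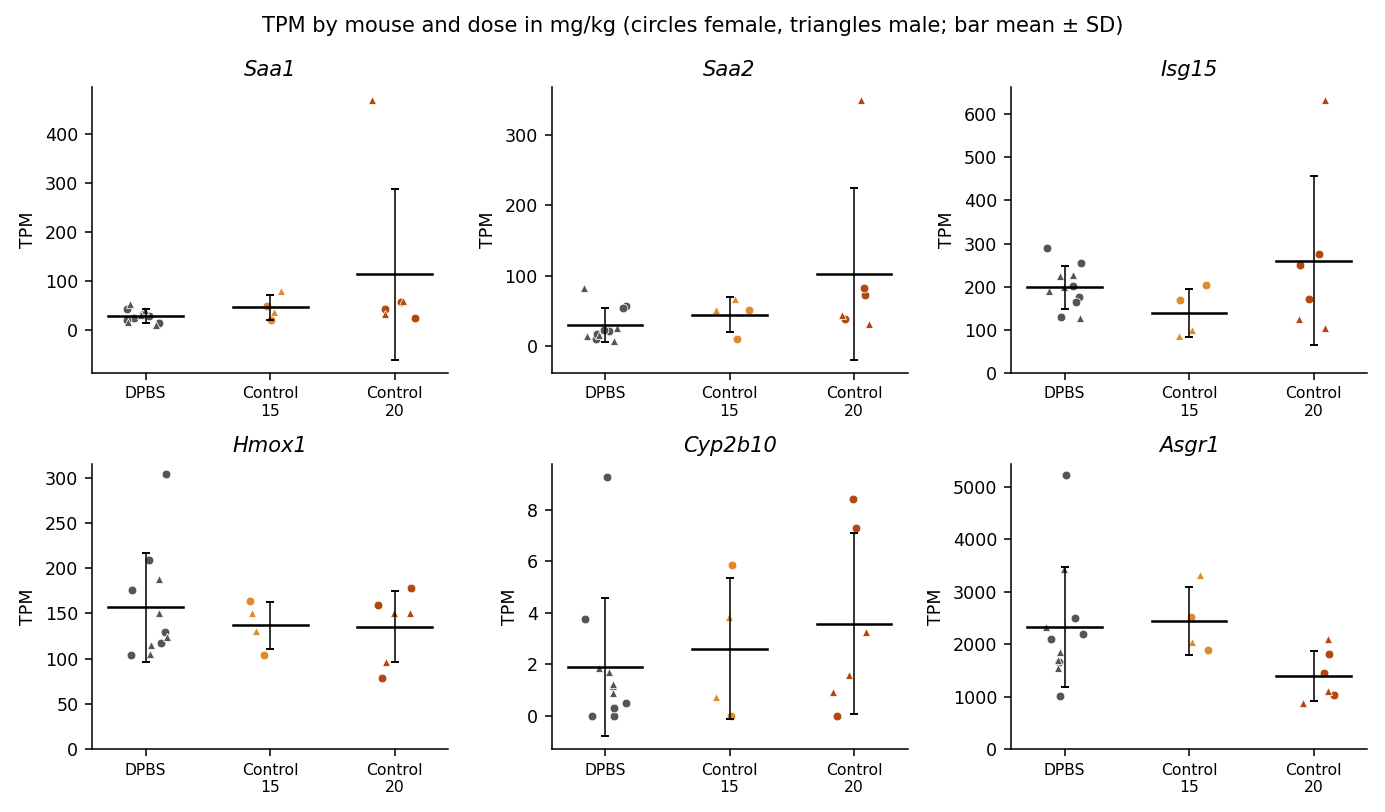
TPM (y axis) of *Saa1*, *Saa2*, *Isg15*, *Hmox1*, *Cyp2b10* and *Asgr1* in each mouse, by treatment and dose in mg/kg (x axis), with circles for females, triangles for males and bars for mean ± SD (n = 11, 4 and 6 mice from left to right). A single male at 20 mg/kg stands highest in *Saa1*, *Saa2* and *Isg15*, at 470, 349 and 635 TPM, and the other mice overlap between the groups.

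Genes of cell stress gave members on both sides. Of 14 p53 targets 2 were higher, *Zmat3* (0.90 ± 0.33) and *Mdm2*, the ubiquitin ligase of p53 (0.65 ± 0.24), and none was lower, with 4 higher without DPBS replicates 6 and 7. *Cdkn1a* (0 to 13.04 TPM in the treated and 0 to 16.04 TPM in the DPBS mice) and *Phlda3* (0 to 8.48 and 0.844 to 12.5 TPM) lay under the filter. Of 21 NRF2 antioxidant genes 3 were higher, among them *Gsta1* (1.15 ± 0.47) and *Fth1*, ferritin heavy chain (0.42 ± 0.20), and *Hmox1*, heme oxygenase, was at -0.16 with a 95% interval of -0.56 to 0.24. Without DPBS replicates 6 and 7 the NRF2 list had 5 higher and 1 lower. Of 18 glutathione S-transferases 4 were higher and none lower, with *Gstt1* at 0.56 ± 0.20 and a list median of 0.26.

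Of 25 genes of the unfolded protein and integrated stress response, 2 were higher and 3 lower. *Manf*, a secreted chaperone of the endoplasmic reticulum, was between 14.1 and 64.2 TPM against 28.1 to 129 TPM (-0.77 ± 0.25), and *Ern1*, which encodes the sensor IRE1, was at 0.81 ± 0.34. *Hspa5* was at -0.18 (interval -0.57 to 0.21) and *Ddit3* at 0.54 (-0.49 to 1.56). Of 17 heat shock genes none was higher and 2 were lower, *Hsp90ab1* again and *Hspd1*, the mitochondrial chaperonin (-0.37 ± 0.17). Of 11 immediate early genes none passed, with *Junb* at -0.57 ± 0.29 and *Jund* at 0.42 ± 0.29. Of 12 tested genes of mitosis and DNA replication 1 was higher, *Stmn1* (0.92 ± 0.29), and 1 lower, *Dlgap5*, of the mitotic spindle, at 6.56 to 34.6 TPM against 3.42 to 138 TPM (-1.58 ± 0.44).

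**Figure D5:**
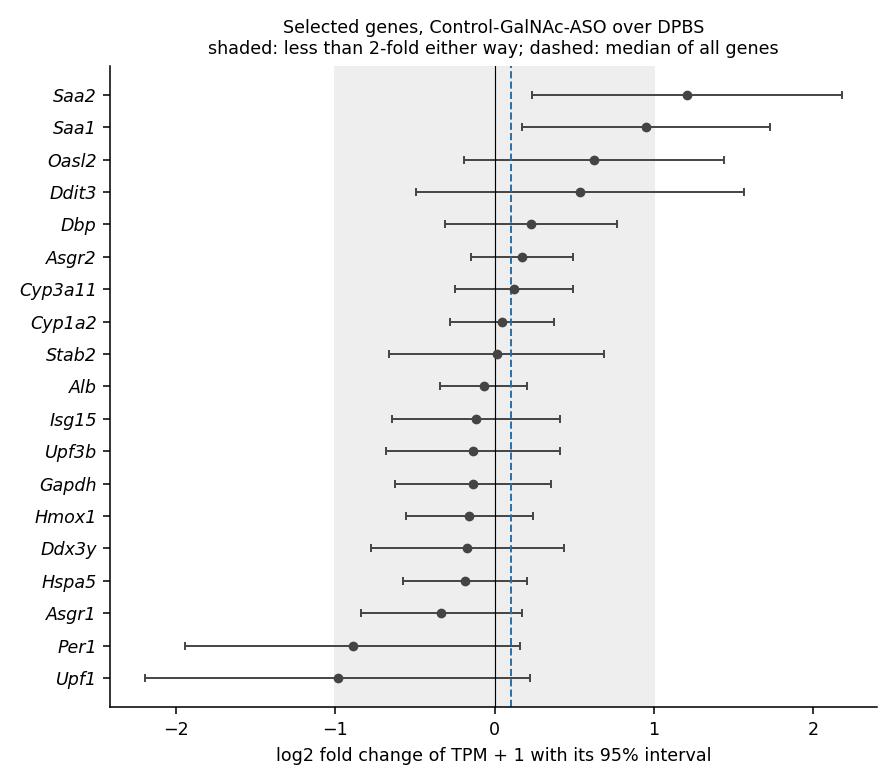
Log2 fold change of TPM + 1, Control-GalNAc-ASO (n = 10) over DPBS (n = 11), with its 95% limma interval (x axis) for the genes named whatever their values and tested (y axis). Only *Saa1* and *Saa2* have intervals that leave out 0, before adjustment, and *Upf1* and *Per1* have the widest intervals.

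Drug and bile acid transporters stood on the higher side. Of 17 tested, 5 were higher and none lower, with a list median of 0.31 against 0.11 for all genes. *Slco1a1*, an organic anion transporter that male mice express more, was 38.6 ± 13.5 TPM (SD, n = 5) in treated females and 10.4 ± 11.5 TPM (SD, n = 6) in DPBS females, and 272 ± 59.7 TPM (SD, n = 5) and 202 ± 41.1 TPM (SD, n = 5) in males. Its log2 fold change was 1.57 ± 0.50 (SE, adjusted p = 0.308), with 2.62 in females and 0.43 in males. After TMM rescaling 4 transporters were higher and the list median was 0.24 against 0.04, and without DPBS replicates 6 and 7 it was 7 higher. In females 2 were higher and at 15 mg/kg 3.

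Among 41 cytochrome P450 genes of families 1 to 4, 2 were higher and 4 lower. *Cyp2j6* was between 60.9 and 141 TPM against 17.7 to 110 TPM (0.76 ± 0.26), and *Cyp2c69* between 0 and 349 TPM against 0.644 to 947 TPM (-1.28 ± 0.36). The genes by which activation of the xenobiotic receptors is read showed no called difference. *Cyp3a11* was at 0.12 (95% interval -0.25 to 0.49) and *Cyp1a2* at 0.05 (-0.28 to 0.38), and *Cyp2b10* lay under the filter, at 0 to 8.44 TPM in the treated mice and 0 to 9.29 TPM in the DPBS mice. Of 26 liver nuclear receptors and hepatocyte factors 1 was higher, *Ahr* (1.136 ± 0.41), and 1 lower, *Rxrb* (-0.63 ± 0.29).

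Lipid and bile acid genes were split in direction. Of 30 genes of cholesterol and fatty acid synthesis 2 were higher, including *Insig2*, and 4 lower, or 2 and 6 without DPBS replicates 6 and 7. Of 29 genes of fatty acid oxidation and ketogenesis 1 was higher, *Cpt2* (0.36 ± 0.17), and 1 lower, *Cyp4a14* (-0.66 ± 0.29). Of 22 apolipoprotein and lipoprotein genes 2 were higher, including *Apon* (0.56 ± 0.21), and 1 lower, *Apoc4*, at 95.7 to 215 TPM against 158 to 273 TPM (-0.50 ± 0.15). None of 12 genes of bile acid synthesis passed, with *Nr0b2* at 0.71 ± 0.42 and *Akr1d1* at 0.41 ± 0.28.

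Of 28 lysosome and autophagy genes 5 were higher and 2 lower, with a list median of 0.26. *Ctsl*, cathepsin L, was between 168 and 267 TPM, median 222, in the Control-GalNAc-ASO mice and between 82.1 and 200 TPM, median 147, in the DPBS mice (log2 fold change 0.62 ± 0.15, SE, adjusted p = 0.160). *Ctsd*, cathepsin D, was between 181 and 333 TPM, median 239, and between 226 and 641 TPM, median 357 (-0.58 ± 0.18, adjusted p = 0.258). The 2 proteases of the same organelle thus lay on opposite sides. After TMM rescaling 1 gene of the list was higher and 2 were lower, without DPBS replicate 3 it was 2 higher and 1 lower, and without DPBS replicate 1 or Control-GalNAc-ASO 15 mg/kg replicate 4, or without DPBS replicates 6 and 7, it was 8 higher. In females 1 was higher and in males 9, at 20 mg/kg 1 and at 15 mg/kg 3.

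Among ribosomal protein genes the members past the unadjusted threshold were lower, and among nuclear genes of oxidative phosphorylation most were higher. Of 61 cytosolic ribosomal protein genes none was higher and 13 were lower (3.73% of all genes were lower), with a list median of -0.08. *Rpl32* was between 264 and 394 TPM, median 304, against 308 to 633 TPM, median 445 (-0.51 ± 0.15, adjusted p = 0.229). For 55 of the 61 the interval lay within 2-fold. The number lower was 8 to 14 with each mouse left out in turn, lowest without DPBS replicate 8 or 10, 13 without DPBS replicates 6 and 7, and 15 after TMM rescaling. It was 4 in females and 8 in males, 3 with the replicate numbers as a block, and 6 at 15 mg/kg, where 3 were higher and the list median was 0.06. Of 48 nuclear genes of oxidative phosphorylation 9 were higher and 1 was lower, with a list median of 0.20. *Sdhd* of complex II was between 65.5 and 175 TPM against 33.7 to 183 TPM (0.69 ± 0.23), and *Ndufa9* of complex I between 22.6 and 72.7 TPM against 7.61 to 60.1 TPM (0.75 ± 0.28). With each mouse left out it was 5 to 16 higher, fewest without DPBS replicate 11 and most without DPBS replicate 1, and after TMM rescaling 5 higher and 5 lower. Without DPBS replicates 6 and 7 it was 11 higher and 5 lower, and in females 2 higher and none lower. Of 13 mitochondrially encoded transcripts none passed, with *mt-Nd2* at -0.31 ± 0.27 and *mt-Nd3* at 0.20 ± 0.16.

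Of 15 circadian clock genes none was higher and 3 were lower, with a list median of -0.17. *Ciart*, a repressor of the clock, was between 0 and 16.5 TPM against 4.18 to 35.5 TPM (-1.61 ± 0.52, adjusted p = 0.308), and *Tef*, a PAR bZIP factor, between 378 and 835 TPM against 614 to 1850 TPM (-0.54 ± 0.19). *Dbp*, a target of the clock with a large daily swing, was at 0.23 (95% interval -0.31 to 0.77), *Per1* was at -0.89 (-1.95 to 0.16), and *Arntl* lay under the filter. The hour of sacrifice of each mouse is not given in the sources used here, so its part in these values was not tested.

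Factors of nonsense-mediated decay (NMD), the pathway the series is about, were compared because the control ASO is meant to leave them alone. Of 14 tested, 1 was higher, *Dhx34* (1.33 ± 0.57), and 1 lower, *Smg9* (-0.68 ± 0.29). *Upf3b* was between 27.1 and 135 TPM, median 86.9, in the Control-GalNAc-ASO mice and between 33.8 and 136 TPM, median 104, in the DPBS mice (log2 difference -0.14, 95% interval -0.68 to 0.41), and *Upf1* was at -0.98 (-2.19 to 0.22), an interval too wide to bound a 2-fold difference. Of 9 exon junction genes 1 was higher, *Sap18* (0.44 ± 0.16), with *Magoh* at 0.35 ± 0.26. Of 21 known NMD substrates 1 was higher, *Srsf10* (0.45 ± 0.19), with *Tbl2* at 0.64 ± 0.36.

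The remaining lists held genes of sex, zonation, iron and matrix. Of 31 growth hormone and sex-biased genes 3 were higher and none lower, among them *Mup3*, a major urinary protein (0.67 ± 0.18, adjusted p = 0.172), and without DPBS replicates 6 and 7 it was 5 higher and 1 lower. Of 15 pericentral genes 2 were higher, including *Oat*, ornithine aminotransferase (0.76 ± 0.21), and 1 lower, and of 19 urea cycle and periportal genes 1 was higher, *Got1* (0.62 ± 0.26), and 1 lower, *Otc* (-0.46 ± 0.20). Of 18 iron genes 3 were higher, including *Slc39a14* (0.59 ± 0.23). Of 10 extracellular matrix genes 1 was higher, *Col3a1*, at 3.58 to 18.2 TPM against 0 to 8.59 TPM (1.37 ± 0.45), with *Timp2* at 0.39 ± 0.24. *Gapdh*, the endogenous control of the study's liver qPCR, was at -0.14 (95% interval -0.63 to 0.35), and *Alb*, albumin, at -0.07 (-0.34 to 0.20).

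Markers of other liver cell types were compared in the same way. None of the 11 markers of Kupffer cells and macrophages and none of the 11 of sinusoidal endothelium passed an unadjusted p under 0.05, with *Msr1* at 0.54 ± 0.27, *Cd68* at 0.70 ± 0.43, *Lyve1* at 0.85 ± 0.49 and *Pecam1* at -0.56 ± 0.30. Without DPBS replicates 6 and 7 the endothelial list had 1 higher and 2 lower. The summed Kupffer cell markers ranged from 308 to 926 TPM in the Control-GalNAc-ASO mice and from 286 to 930 TPM in the DPBS mice, and the summed endothelial markers from 764 to 1878 and from 823 to 2580 TPM. Of 7 stellate cell markers 2 were higher, *Col3a1* and *Rgs5* (0.65 ± 0.22), and the sum of the list ranged from 200.5 to 437 TPM, median 322, against 204 to 355 TPM, median 224. The difference between the stellate sums was not tested, and the median log2 fold change of the list was 0.16 against 0.11 for all genes. *Col3a1* is also the 1 extracellular matrix gene that was higher, so the 2 lists share it.

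Other lists of cells had few members above the filter. The sums in treated and DPBS mice were 3.65 to 16.99 and 1.67 to 27.7 TPM for 12 T and NK cell markers, none of which was tested, and 6.86 to 36.9 and 13.8 to 74.2 TPM for B and plasma cells, with *Cd74* at -0.29 ± 0.40. For neutrophils they were 2.56 to 116 and 5.09 to 55.7 TPM, with *Csf3r* at -0.54 ± 0.47, and for cholangiocytes 6.95 to 34.4 and 7.53 to 33.5 TPM, with *Sox9* at 0.17 ± 0.47. For erythroid genes they were 839 to 5351 and 707 to 1997 TPM, with 1 of 5 higher, *Hba-a1* (0.84 ± 0.36). For adipocyte, pancreas and neighbouring tissue genes they were 183 to 470 and 150 to 521 TPM, with 1 of 2 higher, *Krt8* (0.52 ± 0.23), and the pancreas markers *Prss1*, *Cpa1* and *Ins2* at 0 in all 21 mice.

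The 2 doses were then set against DPBS in a fit of 3 groups. At 15 mg/kg (n = 4) no gene was called, with 691 (7.69%) at an unadjusted p under 0.05. At 20 mg/kg (n = 6) 3 genes were called (0.0334%), all higher, with 978 (10.9%) at an unadjusted p under 0.05. They were *Tmem254c* (log2 fold change 4.18 ± 0.77, adjusted p = 0.0484), *Akap11* (0.996 ± 0.19, adjusted p = 0.0484) and *Insig2* (1.07, at 0.47 for 15 mg/kg). At 15 mg/kg *Tmem254c* was at 3.07 ± 0.88 and *Akap11* at 0.57 ± 0.22, and *Haus4* was at 2.166 ± 0.58 for 15 mg/kg and 2.37 ± 0.50 for 20 mg/kg. Both comparisons used the same DPBS mice. The 4 mice at 15 mg/kg give wider errors, so fewer calls there do not show a smaller effect.

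The test of the difference between the doses called no gene, with 541 (6.02%) at an unadjusted p under 0.05. The 3 with the smallest p were *Id3*, an inhibitor of basic helix-loop-helix factors, *Per1*, a core clock gene, and *BC025920*. *Id3* was 301 ± 145 TPM (SD, n = 6) at 20 mg/kg, 79.2 ± 15.5 TPM (SD, n = 4) at 15 mg/kg and 152 ± 58.6 TPM (SD, n = 11) in DPBS mice, so DPBS lay between the doses (log2 difference 1.78 ± 0.34, SE, adjusted p = 0.133 by limma). *Per1* lay the other way, at 3.87 ± 3.74 TPM at 20 mg/kg, 23.6 ± 13.3 TPM at 15 mg/kg and 14.2 ± 6.99 TPM in DPBS mice (adjusted p = 0.436). *BC025920* was at 41.5 ± 18.9, 7.01 ± 6.15 and 20.1 ± 14.1 TPM (adjusted p = 0.436). In each of the 3 the means of the 2 doses lay on opposite sides of the DPBS mean. Picking genes by the smallest p for the dose difference favours that pattern, and none of the 3 passed after adjustment.

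The difference from DPBS was also compared between the sexes. The interaction called no gene, with 760 (8.46%) at an unadjusted p under 0.05. The smallest p was that of *Eif3c*, a subunit of translation initiation factor 3, whose log2 fold change was 1.21 in females and -0.90 in males (difference -2.10 ± 0.39, SE, adjusted p = 0.0862 by limma). *Bcar3*, a signalling adaptor, was at -1.11 in females and 1.47 in males, and *Aldoa*, an aldolase of glycolysis, at -0.74 and 1.08 (both adjusted p = 0.522). Within sexes, females gave no called gene and males gave 1, *Lrrc17*, which was lower and was named after its value was seen.

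A GalNAc-ASO of another sequence gives a second reading against the same DPBS mice. With all 31 mice in 1 fit, 1 gene was called for Control-GalNAc-ASO against DPBS (0.0111%), *Haus4* (log2 fold change 2.31 ± 0.43, adjusted p = 0.0409), while *Tmem254c* had an adjusted p of 0.0804. In that fit 163 genes (1.81%) were called for Upf3b-GalNAc-ASO against DPBS, and 467 (5.2%) for Upf3b-GalNAc-ASO against Control-GalNAc-ASO. The ASO's own target *Upf3b* was between 2.57 and 53.7 TPM in the Upf3b-GalNAc-ASO mice, a log2 fold change of -3.07 ± 0.37 against DPBS. *Haus4* was between 0.977 and 14.3 TPM in the Upf3b-GalNAc-ASO mice, at 1.53 ± 0.44 against DPBS (adjusted p = 0.0565). *Tmem254c* was between 0 and 51.4 TPM there, at 2.07 ± 0.76 (adjusted p = 0.197). Both comparisons use the DPBS mice by which these 2 genes were picked.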

How the data were processed

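Liver RNA-seq of 21 mice was used, with 10 further mice of the series only where all 31 are named. The authors deposited 1 table of TPM per mouse, made with Salmon 0.7.2 after bcl2fastq 2.17.1.14 (submitters' processing notes), on mouse transcripts of GRCm38. The labels name a 3′ tag library kit and the study's methods another kit. Between 69.9% and 81.5% of values above 0 were whole multiples of 1 step per mouse (tolerance 0.02 read), from which reads per mouse were taken. The values were too rarely whole for a count test. Of 31198 symbols, 26 that had become dates were left out. No pair of mice had identical values.

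Values were taken as log2(TPM + 1), and genes were kept whose median reached 5 TPM in either group. limma 3.58.1 (R 4.3.3; eBayes with trend and robust) was fitted with sex as a covariate, and Benjamini-Hochberg adjustment ran over all genes tested. Doses, sexes and all 31 mice had fits of their own. The study's own test on counts was not rebuilt. The steps were tested on simulated data. The alternatives were other pseudocounts, filters, scaling (TMM), weights, tests, subsets and mice left out.

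The comparison and the gene lists were chosen with earlier results of these data known. Genes named were 12 higher and 12 lower genes (those called, then filled by smallest p), a fixed set, and the 2 members of each list with the smallest p. The 3 genes of smallest p for dose and for sex were named too. Some genes that the rule names are not reported here. Sequences matched GENCODE M21. Floors and intervals from reads cover counting error only.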

Additional observations from a re-analysis of the deposited data

Results flagged for a closer look

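In groups of 4 to 10 mice, 42 sets of TPM values were screened for a single mouse far from the rest by Dixon's criterion, and 9 stood out. The criterion's rate of about 1 in 20 holds for independent, normally distributed values. These sets share mice and some lie near the floor, so the 9 cannot be set against that rate. The DPBS mice as 1 group (n = 11) were larger than the groups screened, so that group was not screened whole. All 9 lay in the 6 mice given 20 mg/kg. Replicate 4 was highest in the summed Kupffer cell markers (925.6 TPM), the summed neutrophil markers (116.5 TPM), the summed erythroid genes (5351 TPM) and *Lcn2*, a neutrophil and acute-phase protein (7.88 TPM). Replicate 6 was highest in *Saa1* (469.8 TPM), *Saa2* (349.3 TPM) and *Isg15* (634.6 TPM). Replicate 1 was highest in *Rnaseh1* (10.7 TPM) and replicate 5 in *F9* (6.09 TPM), both at levels of few reads. No difference between the sexes or doses passed the adjusted threshold.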

How the results depend on the processing

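The count of 2 called genes in the pooled comparison was fragile. It became 0 with a pseudocount of 0.1 or 5 TPM, no filter, a filter at 20 TPM, TMM rescaling, an exact Wilcoxon test, females only, 15 mg/kg only or 20 mg/kg only. It was 1 without trend and robust estimation and 1 (a lower gene) in males only, and 265 with weights per mouse. Leaving out 1 mouse at a time, it ran from 0 to 23, with 0 in 12 of 21 cases and 23 without DPBS replicate 6. *Tmem254c* stayed called in 7 of these cases and *Haus4* in 5. The 116 genes at 2-fold and an unadjusted p of 0.01 became 28 with a pseudocount of 5 TPM, 37 with a filter at 20 TPM, 234 with weights, 63 in females and 318 in males, and 83 to 151 with a mouse left out. The 3 genes called at 20 mg/kg became 0 to 1 with each of the 6 treated mice left out, and no DPBS mouse was left out of that fit. Of 124 named genes tested, 28 took both signs over the alternatives and 7 with 1 mouse left out. None of them was among the 12 higher and 12 lower genes of smallest p. Those genes were picked by their p in these same mice, so their steady sign is no separate support. The causes of the changes between settings were not tested.

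Residuals of same-numbered mice of different groups had a mean correlation of -0.033 over 14 pairs, 3 of them above 0.1. For mice with different numbers it was 0.003 over 120 pairs, 27 of them above 0.1. Same-numbered mice were thus no more alike, and whether they shared a litter, cage or day was not tested. With the replicate block the pooled count was 0, the count at 2-fold was 74, the count at 20 mg/kg was 0, and 503 genes had an unadjusted p under 0.05. The acute-phase list then had 3 higher.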
